A study of Saccharomyces cerevisiae with 24 samples.

Results

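The 56 genes described here encode the proteins of the small (40S) subunit of the cytosolic ribosome of Saccharomyces cerevisiae, RPS0 to RPS31. They were taken by their systematic names from the 6713 transcripts quantified in each library. They form 32 families, of which 24 are pairs of paralogs and 8 are single-copy genes, RPS2, RPS3, RPS13, RPS15 and RPS31 among them. The 40S subunit binds the mRNA, scans for the start codon and holds the decoding centre where codon and anticodon are paired. Its proteins assemble in equimolar amounts on the 18S rRNA, and their genes are among the most strongly transcribed in a growing yeast cell. Their transcription is known to depend on the TORC1 kinase complex and on the transcription factors Rap1, Fhl1, Ifh1 and Sfp1, and caffeine is known to inhibit TORC1.

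RNA was sequenced from 24 libraries of 4 strains. BY4742 is a laboratory strain of the S288C background, and YPS606, Y55 and UWOP are strains of other genetic backgrounds. UWOP is the study's name for a strain of the UWOPS87 series, written out in full on the plots. Each strain was grown in synthetic defined media to an optical density of 0.4 and sampled either without caffeine or after 4 h in 20 mM caffeine, with 3 libraries in each of the 8 groups. Nothing in the labels says that the libraries of a group came from separate cultures, so p-values measure the spread between these libraries. A library is named here by its group and number, from 25 to 48.

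Library totals ranged from 8714049 to 29524968 estimated counts. In BY4742, the auxotrophy marker genes URA3, LEU2 and LYS2 were at 0.2 CPM (counts per 1e6 counts of a library) or less in all 6 libraries, while LEU2 and LYS2 were at 39.7 CPM or more in all libraries of the other strains. HIS3, also in this check, went the other way. It was at 87.8 CPM or more in BY4742 and at 82.9 CPM or less in the other strains. URA3 differed between libraries of 1 group: it was at 2.3 CPM or less in Y55 libraries 27 and 31 and in UWOP libraries 28 and 32, but between 26.0 and 170.7 CPM in the other 8 libraries of these strains. The low libraries are all those of these strains numbered 25 to 32, and the others are numbered 33 to 48, so the split follows the library number. The alpha-cell gene STE3 was at 70.8 CPM or more in every library, and the a-cell gene MFA1 was at 2.2 CPM or less. Another a-cell gene, STE2, was at 1.9 to 4.1 CPM without caffeine and at 5.8 to 27.0 CPM in caffeine. In caffeine in BY4742, 5 of 5 a-cell genes of this check rose and 4 of 4 alpha-cell genes fell, at the threshold used below. The shares over all features were 27.4% higher and 24.8% lower. Y55 and UWOP differed in 4 of 6377 features in either condition. With URA3 split within these groups, the strain labels of some of these libraries may be wrong. This was not tested and cannot be told apart from a difference that goes with the library number. Y55 and UWOP are not to be read as independent strains. Their values are given by label.

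Most pairs are nearly identical in sequence, and the deposited counts of 47 of the 56 genes were not whole numbers in at least 1 library (further than 0.01 from a whole number), as reads that match more than 1 transcript are divided by estimation. Of these genes 46 belong to pairs, and the other is RPS31, a single-copy gene not whole in 17 libraries, whose ubiquitin-coding part is also present in other genes and whose counts are therefore less certain. The copies of 23 pairs were therefore summed. RPS27 was the only pair with whole counts in all 24 libraries, and RPS27A and RPS27B were kept apart, which gave 33 features: 23 sums, 8 single-copy genes and the RPS27 copies. All 33 passed the filter on low counts, the least abundant, RPS27A, with at least 3232 counts in every library. The coding sequences show how far the copies of a pair differ. In a 75-base stretch (coding positions 91 to 165, capitals marking the bases that differ within a pair), RPS27A and RPS27B differed at 14 positions, RPS22A and RPS22B at 8 and RPS6A and RPS6B at 2. The sequences are those of RefSeq on R64, from chromosomes XI (RPS27A), VIII (RPS27B), X (RPS22A), XII (RPS22B), XVI (RPS6A) and II (RPS6B), written 5′ to 3′ on the coding strand.
RPS27A, YKL156W: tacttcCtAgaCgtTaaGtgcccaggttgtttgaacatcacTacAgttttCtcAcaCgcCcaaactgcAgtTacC
RPS27B, YHR021C: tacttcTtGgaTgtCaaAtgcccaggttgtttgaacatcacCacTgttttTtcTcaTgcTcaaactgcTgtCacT
RPS22A, YJL190C: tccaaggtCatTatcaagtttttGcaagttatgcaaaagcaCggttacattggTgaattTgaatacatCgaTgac
RPS22B, YLR367W: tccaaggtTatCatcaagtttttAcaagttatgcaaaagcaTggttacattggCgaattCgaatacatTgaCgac
RPS6A, YPL090C: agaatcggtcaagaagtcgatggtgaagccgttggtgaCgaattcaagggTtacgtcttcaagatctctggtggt
RPS6B, YBR181C: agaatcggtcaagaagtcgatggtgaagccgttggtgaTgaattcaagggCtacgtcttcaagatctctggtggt

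Over the whole coding sequence, identity within a pair ran from 84.3% in RPS27 to 99.2% in RPS6, whose copies differ at 6 of 711 bases. Of the 24 pairs, 9 encode identical proteins, while the proteins of RPS29 are 91.1% identical, slightly below its coding sequences (91.8%). The most divergent proteins are those of RPS7, at 87.9% identity.

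Introns are a second shared feature. Of the 56 genes, 36 (64.3%) have an intron in the coding region on R64, against 318 of 6008 coding genes (5.29%). The promoters were searched on both strands over 600 bases before the start codon for the letters ACCCNNACA, a short form of the Rap1 site. They were found before 18 of the 56 genes (32.1%) and before 387 of 6005 genes with a full window (6.44%). The letters AAAATTTT (RRPE, an element of ribosome biogenesis genes) were found before 4 members (7.14%) and 13.6% of all genes, and GATGAG (PAC, another element of such genes) before 14 members (25.0%) and 32.1% of all genes. A match to such short letters is a description of the sequence, and other forms of the Rap1 site were not searched. The promoter stretches of RPS13 and RPS2, single-copy genes that hold the letters (in capitals) and that recur in the comparisons below, are shown from R64. They lie on the plus strand at chrIV:579198-579287 and chrVII:277199-277288.
RPS13, YDR064W: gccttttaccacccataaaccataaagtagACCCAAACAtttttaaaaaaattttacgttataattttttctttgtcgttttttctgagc
RPS2, YGL123W: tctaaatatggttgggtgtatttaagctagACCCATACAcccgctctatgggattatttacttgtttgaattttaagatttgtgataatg

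In BY4742 without caffeine, the level of a family, as TPM (transcript abundance per length, scaled to the same total in each library) summed over its copies, ranged 5.34-fold. The highest was RPS28, a small protein near the mRNA exit, at 11269, 10323 and 11570 TPM in the 3 libraries. RPS31, whose product is made as a fusion with ubiquitin, had 10399, 10690 and 10976 TPM, and RPS26, which lies at the mRNA exit channel, had 10635, 9170 and 10708 TPM. These 3 do not separate from each other beyond their spread. The lowest were RPS7, at 1902, 2219 and 2094 TPM, RPS27, a zinc-finger protein, at 2212, 1980 and 2147 TPM, and RPS13, at 2032, 2383 and 2279 TPM, which overlap as well. The order depended on the length used. The length in the files equals the spliced coding sequence for 20 of the 56 genes and includes the intron in the others, so that the reads of a spliced mRNA are divided by a length that holds the intron. Per kilobase of spliced coding sequence the range narrowed to 2.91-fold, and the highest families relative to the median family were RPS31 (1.66), RPS26 (1.44) and RPS30 (1.35). RPS28 fell from 2.93 to 1.07 times the median family and RPS27 rose from 0.56 to 0.92, while RPS7 stayed the lowest at 0.57. For the shortest genes TPM also rests on small effective lengths, down to 68.7 bases for RPS29 in BY4742. The measure per kilobase uses the full coding length with no such correction, so short genes rank lower by it. RPS28 has no intron, and its length of 204 bases is the same in the files and in the coding sequence. Neither measure is taken as the truer level.

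**Figure D1:**
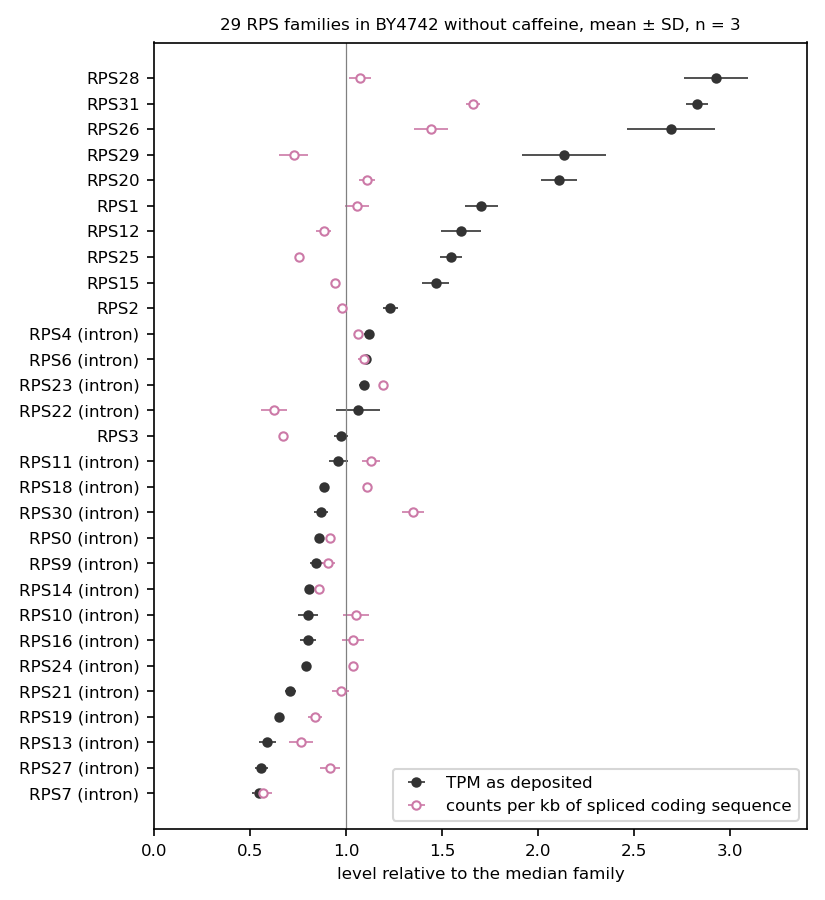
Level of 29 of the 32 families in BY4742 without caffeine relative to the median family (x axis, linear), as deposited TPM (filled) and as counts per kilobase of spliced coding sequence (open), mean ± SD over 3 libraries. RPS28 moves from 2.93 to 1.07 and RPS27 from 0.56 to 0.92 between the measures, and families with an intron are marked. Counts per kilobase carry no correction for effective length.

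The 56 genes together took 8.63%, 8.47% and 8.74% of the counts in the BY4742 libraries without caffeine. In BY4742 in caffeine they took 3.78% (library 29), 5.82% (library 37) and 3.71% (library 45), 0.52 times the share without caffeine, and the groups did not overlap. In YPS606 the share was 10.3% (library 26), 9.99% (library 34) and 6.41% (library 42) without caffeine and 5.80% to 6.36% in caffeine, which also did not overlap. In UWOP it was 8.31% to 8.93% without and 6.25% to 6.58% in caffeine, with no overlap. In Y55 it was 8.54% (library 27), 6.86% (library 35) and 8.57% (library 43) without caffeine and 6.38%, 7.87% and 6.71% in caffeine, and these groups overlapped. With 3 libraries against 3, the exact two-sided permutation test cannot go below p = 0.1. This exact permutation test gave p = 0.1 for caffeine in BY4742, YPS606 and UWOP and p = 0.2 in Y55. Without caffeine the share of each strain overlapped that of BY4742 (exact permutation p = 1.0, 0.4 and 0.9 for YPS606, Y55 and UWOP). In caffeine it was higher than in BY4742 without overlap in Y55 and UWOP (exact permutation p = 0.1 for both), and overlapped in YPS606 (exact permutation p = 0.2). A share of mRNA does not tell fewer transcripts of these genes per cell from more of other genes.

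The large subunit genes moved with them. The 81 genes of RPL and RPP proteins took 10.8% to 11.3% of counts in BY4742 without caffeine and 4.95% to 7.71% in caffeine. The ratio of the small to the large subunit share lay between 0.73 and 0.86 over the groups. In BY4742 it was 0.769 to 0.783 without caffeine and 0.728 to 0.755 in caffeine, with no overlap. In YPS606 without caffeine it was 0.808 to 0.857, above BY4742. The conditions overlapped in YPS606, Y55 and UWOP. Libraries 37 (BY4742 in caffeine), 42 (YPS606) and 35 (Y55) lay toward the other condition of their strain in both shares, and so did library 39 (Y55 in caffeine), at 7.87% and 9.99%. After removal of what the group means explain, 89.8% of the remaining variance of the 33 features lay along 1 axis on which all 33 had the same sign, with exceptions in single libraries: Y55 caffeine library 39 was the highest of its group for RPS2 and the lowest for RPS7 (1496 CPM against 1582 and 1630 CPM). Because libraries 35, 37, 39 and 42 were picked on the share itself, values without them are a description and not independent evidence. Such values are given beside the counts as "without libraries 35, 37 and 42", with library 39 left out as well where stated. The calls over all features in fits that leave out libraries are not given. A count that changes in such a fit is therefore not read as particular to these genes.

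**Figure D2:**
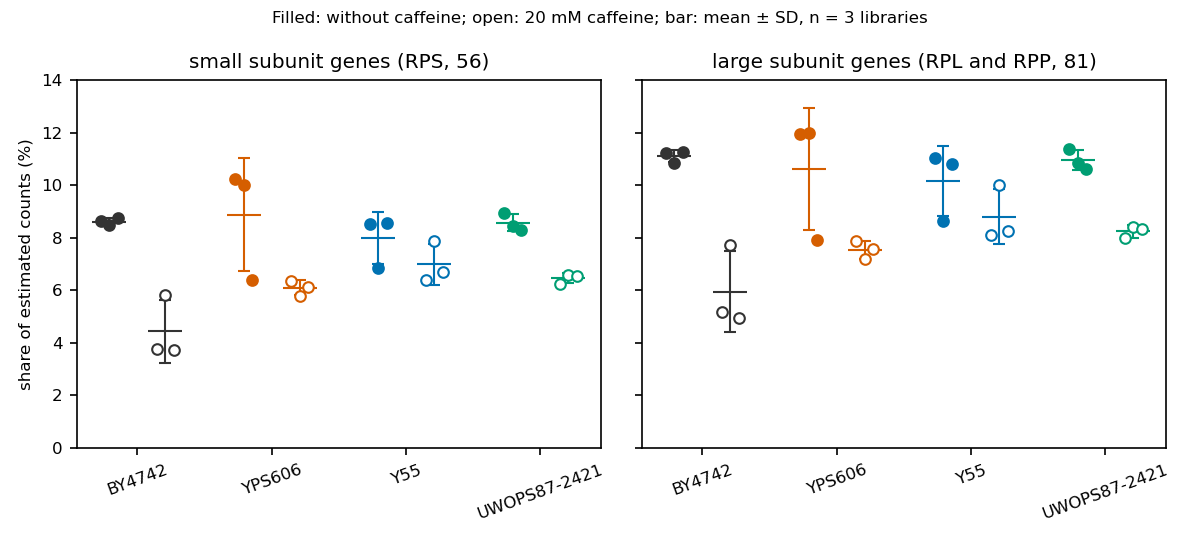
Share of each library's estimated counts (y axis, percent) in the 56 small subunit genes (left) and the 81 large subunit genes (right), by strain, without caffeine (filled) and in 20 mM caffeine (open), with mean ± SD over 3 libraries. BY4742 in caffeine holds the lowest shares, 3.71% and 3.78% in libraries 45 and 29, and Y55 shows overlap between its conditions.

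The first question was how caffeine changed these genes in each strain. In BY4742 every feature fell: 33 of 33 were lower and 0 higher at an adjusted p under 0.05 (edgeR's quasi-likelihood test), with a median log2 fold change of -1.31, and no feature overlapped between the groups. Over all 6377 features tested, 24.8% were lower and 27.4% higher and the median was 0.03. The share of all features without overlap is not given, so the lack of overlap is only a description. RPS13, which sits at the subunit interface, was at 1939, 2298 and 2209 CPM without caffeine and at 594, 930 and 614 CPM in caffeine (log2 fold change -1.59, SE 0.19, edgeR adjusted p = 1.07e-06). RPS22, a protein that binds 18S rRNA early in assembly, was at 1390, 1692 and 1469 CPM and fell to 380, 694 and 452 CPM (-1.58, SE 0.19, edgeR adjusted p = 1.49e-06). RPS15, a protein of the head of the subunit, was at 2509, 2414 and 2545 CPM and fell to 750, 1148 and 628 CPM (-1.56, SE 0.20, edgeR adjusted p = 1.95e-06). In all 3 genes library 37 was the highest of the caffeine libraries and still below every library without caffeine.

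The smallest falls in BY4742 were those of RPS28, RPS27A and RPS30. RPS28 was at 1365, 1260 and 1431 CPM without caffeine and at 619, 1018 and 534 CPM in caffeine (-0.90, SE 0.24, edgeR adjusted p = 0.00321). RPS27A was at 476, 425 and 445 CPM and then at 215, 301 and 193 CPM (-0.93, SE 0.20, edgeR adjusted p = 0.000736). RPS30 was at 1646, 1524 and 1625 CPM and then at 654, 1091 and 619 CPM (-1.02, SE 0.22, edgeR adjusted p = 0.00065). The 20 features with an intron in at least 1 copy had a median of -1.31 and the 13 without one a median of -1.35, with ranges that overlapped. Without libraries 35, 37 and 42 all 33 were again lower, with a median of -1.60.

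In YPS606, 31 of 33 features were lower and 0 higher (median -0.80), against 19.9% lower and 20.4% higher over all features (median -0.01). RPS6, the protein phosphorylated downstream of TORC1, was at 6711, 6483 and 3658 CPM without caffeine and at 3050, 2701 and 2804 CPM in caffeine (-0.98, SE 0.20, edgeR adjusted p = 0.000618), with no overlap. RPS20, a protein of the head (-0.98, SE 0.23), was also among the largest falls. RPS15 fell least among those called: it was at 1991, 2069 and 1556 CPM without and 1442, 1142 and 1191 CPM in caffeine (-0.57, SE 0.19, edgeR adjusted p = 0.0219). RPS28 (-0.59) and RPS30 (-0.61) followed, with libraries that overlapped, library 42 being the lowest without caffeine. RPS27A (-0.49) and RPS29 (-0.68) did not pass the test. Without libraries 35, 37 and 42 all 33 were lower and the median was -1.03.

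In UWOP, 25 of 33 features were lower and 0 higher (median -0.63), against 12.9% lower and 14.5% higher over all features (median 0.00). None of the 33 overlapped between the groups, a description without the share of all features that did not overlap. RPS27B was at 1091, 1007 and 1090 CPM without and 549, 630 and 562 CPM in caffeine (-0.87, SE 0.22, edgeR adjusted p = 0.00669). RPS14, a protein of the platform (-0.81, SE 0.20), and RPS22 (-0.79, SE 0.19) came next, and RPS1 (-0.48, SE 0.16) and RPS7 (-0.53, SE 0.14) were among those that passed with the smallest falls. The 25 calls became 12 without UWOP library 28 and 11 without UWOP caffeine library 32. They became 0, with a median of -0.54, without libraries 27, 28, 31 and 32, whose URA3 was near 0, which leaves 2 libraries in each of these groups. Without libraries 35, 37 and 42 all 33 were lower (median -0.63).

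In Y55 no feature passed the test (0 lower and 0 higher of 33, median -0.32), against 5.8% lower and 8.61% higher over all features (median -0.01). All 33 fold changes were below 0, 3 of them at an unadjusted p under 0.05, and DESeq2 also called 0. RPS27B had the lowest value, -0.52, with 936, 709 and 1036 CPM without and 545, 720 and 603 CPM in caffeine, which overlap. Leaving out BY4742 caffeine library 37 or YPS606 library 42, which enter this fit through the shared estimate of spread, gave 1 call each. Without libraries 35, 37 and 42 there were 27 lower features (median -0.40), and without library 39 as well there were 31 (median -0.52). Libraries 35 and 39 were picked because their shares lay toward the other condition, so leaving them out separates the Y55 groups by choice. It also leaves fewer libraries in both Y55 groups. These counts are a description, and no conclusion is drawn from them.

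**Figure D3:**
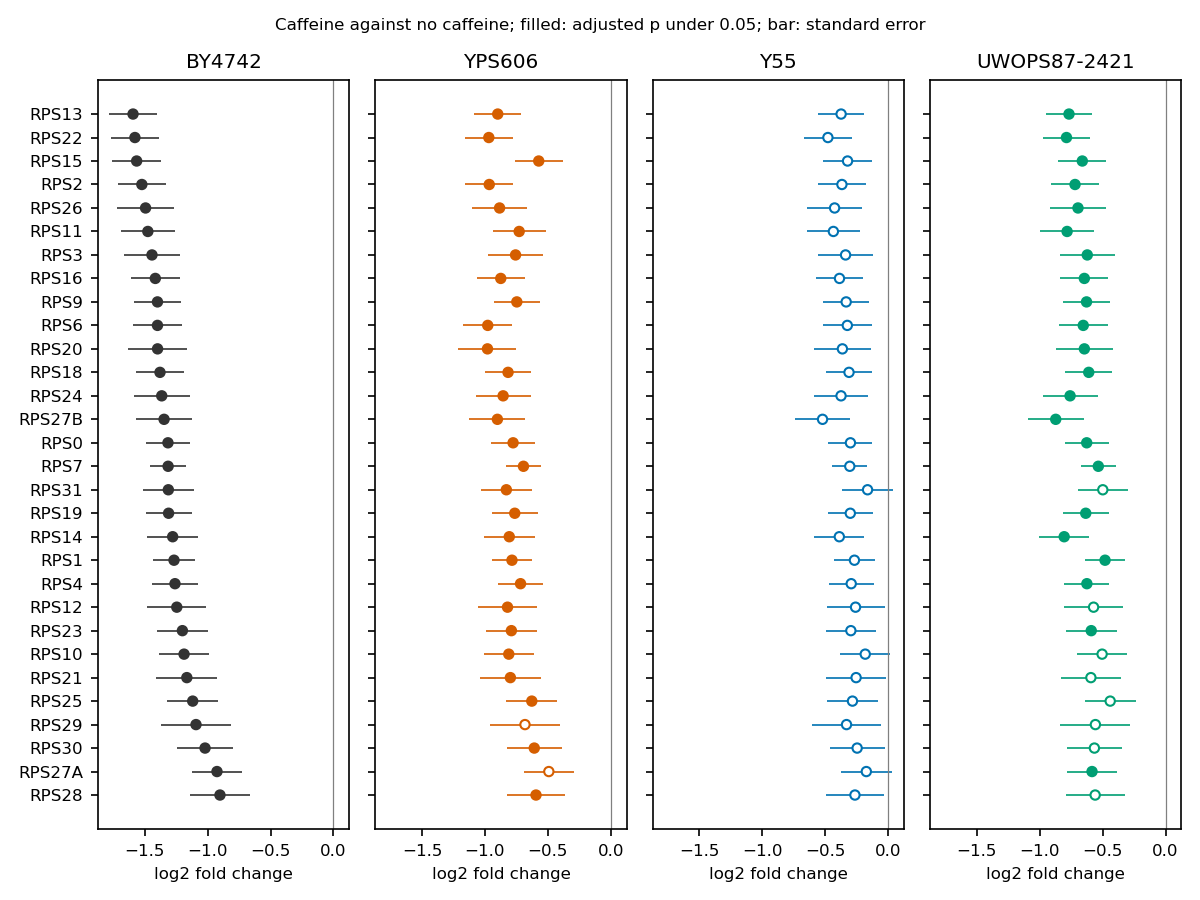
Log2 fold change in caffeine against no caffeine (x axis) for 30 of the 33 features (y axis, ordered by the value in BY4742) in the 4 strains, with the standard error as a bar and filled points for adjusted p under 0.05 by edgeR. All points lie below 0, with medians over all 33 of -1.31, -0.80, -0.32 and -0.63 from left to right.

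The test of whether a strain's caffeine response differed from that of BY4742 is the interaction of strain and caffeine. A positive value means a smaller fall than in BY4742. All values of these 33 features were positive in each of the 3 tests, which share the BY4742 libraries. In Y55, 27 of 33 features were higher and 0 lower (median 1.01), against 14.9% higher and 13.9% lower over all features (median -0.03). RPS15 (1.24, SE 0.27, edgeR adjusted p = 0.00237) and RPS13 (1.22, SE 0.26, edgeR adjusted p = 0.00207) were among those that differed most. RPS25 (0.83), RPS14 (0.89) and RPS23 (0.90), the last a protein of the decoding centre, differed least among those called.

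In UWOP, 12 of 33 features were higher and 0 lower (median 0.72), against 11% higher and 11.2% lower over all features (median -0.01). RPS15 (0.90, SE 0.27) and RPS13 (0.83, SE 0.26) were among the largest here as well. RPS18 (0.77), RPS16 (0.77) and RPS9 (0.77) were the smallest among those called. DESeq2 called 20, and its share over all features is not given. The count of edgeR calls moved by more than 1.5 times in 14 of the 24 fits that left out a single library. It was lowest, 1, without BY4742 caffeine library 29 and highest, 31, without BY4742 caffeine library 37. It was 21 without YPS606 library 42 and 2 to 7 without library 25, 28, 31, 32, 33, 34, 36, 41, 44, 45 or 48. It was 33 without libraries 35, 37 and 42 and 2 without the 4 libraries whose URA3 was near 0.

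In YPS606, 2 of 33 features were higher and 0 lower (median 0.51), against 6.88% higher and 5.96% lower over all features (median -0.02). They were RPS15 (0.99, SE 0.27, edgeR adjusted p = 0.0203) and RPS7 (0.62, SE 0.20, edgeR adjusted p = 0.044). A share of 2 in 33 is near that background. In this strain 15 of the 33 were at an unadjusted p under 0.05, and DESeq2 called 3. The shares of all features by these measures are not given, so neither count is read as an excess in these genes. The count of edgeR calls was 25 without BY4742 caffeine library 37. It was 0 without either of the other BY4742 caffeine libraries, 29 and 45, or without YPS606 caffeine library 30. It was 4 without YPS606 library 26 and 1 without library 25, 28, 31, 32, 33, 34, 36, 38, 41, 42, 44, 46 or 48. Without libraries 35, 37 and 42 it was 27 (median 0.61).

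The second question was how the strains differed at a given condition. Reads of all strains were quantified against R64 transcripts, so strain differences in sequence may enter these comparisons. This was not tested. Without caffeine no feature passed the test in any strain against BY4742. In YPS606 there were 0 higher and 0 lower of 33 (median 0.12), against 21.1% higher and 17.1% lower over all features (median 0.04). In Y55 there were 0 and 0 (median -0.11), against 20.1% and 13.9% (median 0.04). In UWOP there were 0 and 0 (median 0.05), against 20.9% and 15.8% (median 0.03). At an unadjusted p under 0.05, edgeR's test gave 1, 0 and 0 features, and DESeq2 called 1, 0 and 0. The 1 was RPS15 in YPS606, at 1991, 2069 and 1556 CPM against 2509, 2414 and 2545 CPM in BY4742, which do not overlap (log2 fold change -0.41, SE 0.19, edgeR adjusted p = 0.098). At the other end RPS22 had 0.29 (SE 0.19), with libraries that overlapped. In YPS606, leaving out library 42 gave 5 higher features, leaving out BY4742 caffeine library 37 gave 1 lower, and without libraries 35, 37 and 42 there were 21 higher (median 0.36). The other strains stayed at 0 in both directions without those libraries. Without library 39 as well, YPS606 had 25 higher and UWOP had 2.

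In caffeine the strains were higher than BY4742. In Y55, 31 of 33 features were higher and 0 lower (median 0.91), against 30.4% and 28.7% over all features (median 0.00). RPS2, a protein at the mRNA entry site, was at 3656, 4199 and 3056 CPM against 1338, 2184 and 1296 CPM in BY4742 (1.18, SE 0.19, edgeR adjusted p = 2.78e-05). RPS3, which lines the mRNA entry channel, was at 2245, 2869 and 2224 CPM against 865, 1608 and 824 CPM (1.15, SE 0.22, edgeR adjusted p = 0.000166). RPS13 had 1.08 (SE 0.19). RPS27B (0.72), RPS21 (0.76) and RPS30 (0.81) were the smallest among those called.

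In UWOP, 31 of 33 features were higher and 0 lower (median 0.75), against 28% and 26.4% over all features (median -0.02). RPS3 was at 2103, 2301 and 2320 CPM (1.03, SE 0.22, edgeR adjusted p = 0.000564), all above the highest BY4742 library. RPS2 (1.01, SE 0.19) and RPS13 (0.90, SE 0.19) followed, and RPS21 (0.59), RPS27B (0.62) and RPS14 (0.63) were the smallest among those called. RPS27A and RPS28 did not pass in this strain or in Y55: their values were 0.26 and 0.37 in UWOP and 0.39 and 0.51 in Y55. These are the features whose fall in BY4742 was smallest, and both comparisons use the same BY4742 caffeine libraries.

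In YPS606, 27 of 33 features were higher and 0 lower (median 0.61), against 24.4% and 22.1% over all features (median -0.01). RPS22 was at 938, 900 and 1005 CPM against 380, 694 and 452 CPM (0.90, SE 0.19, edgeR adjusted p = 0.000644). RPS3 (0.89, SE 0.22) and RPS13 (0.87, SE 0.19) were next. RPS4 (0.50) and RPS0 (0.53) were among the smallest of those called. The count was 10 without BY4742 caffeine library 29, 10 without library 45 and 15 without YPS606 caffeine library 30. It was 9 when the spread was estimated from these groups alone and 17 without the 4 libraries whose URA3 was near 0. Without libraries 35, 37 and 42 all 33 were higher in each of the 3 strains, with medians of 0.92 (YPS606), 1.22 (Y55) and 1.04 (UWOP).

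UWOP against Y55 gave 0 higher and 0 lower of 33 features without caffeine (median 0.16) and 0 and 0 in caffeine (median -0.16), with 0 at an unadjusted p under 0.05 and 0 by DESeq2. Whether the response to caffeine differed between these strains was not tested. Over all features 0% were higher and 0.0627% lower in both conditions.

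**Figure D4:**
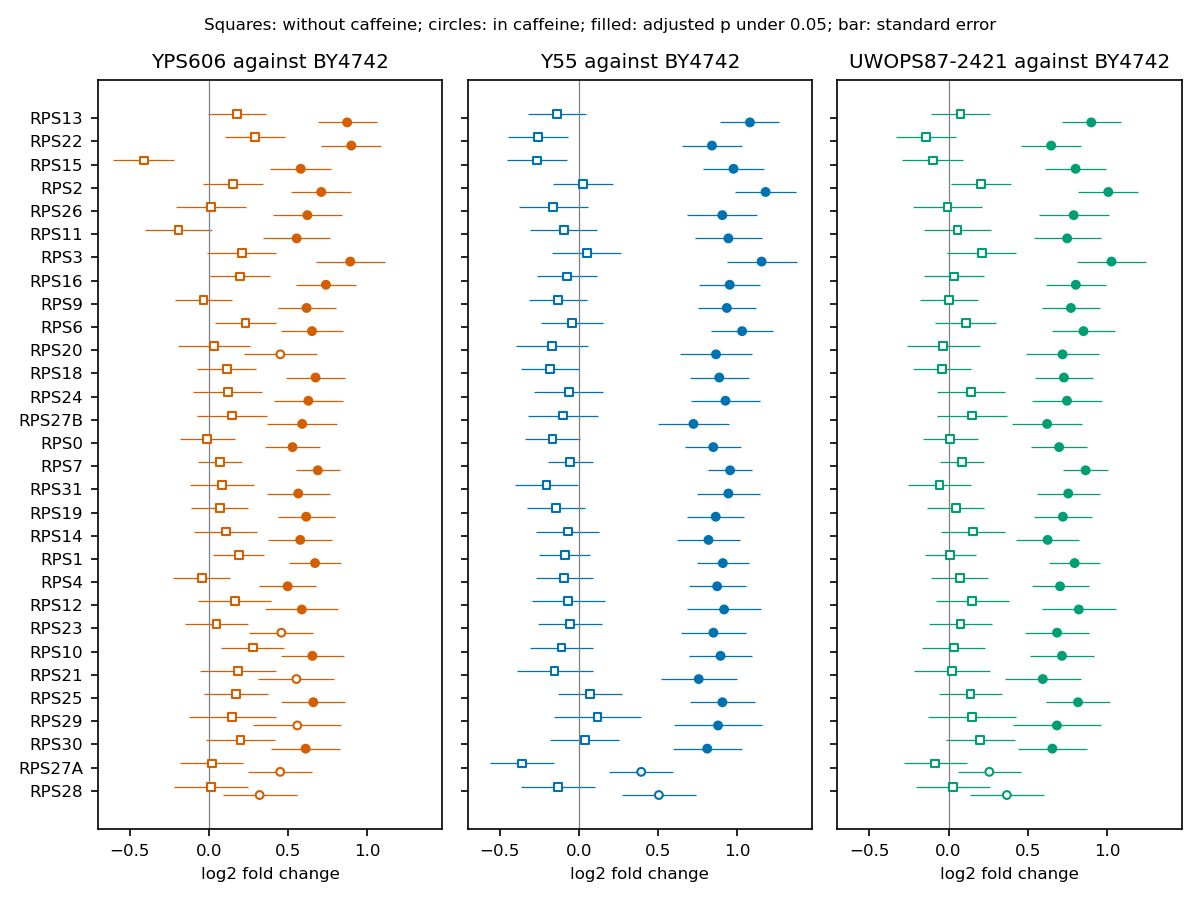
Log2 fold change of each strain against BY4742 (x axis) for 30 of the 33 features (y axis) without caffeine (squares) and in caffeine (circles), with the standard error as a bar and filled points for adjusted p under 0.05 by edgeR. Squares scatter about 0 and none is filled, and circles lie to the right, with medians over all 33 of 0.61, 0.91 and 0.75.

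RPS27 is the pair whose copies could be told apart. RPS27A made up 32.6%, 32.4% and 30.7% of the pair's counts in BY4742 without caffeine and 41.4%, 36.1% and 39.5% in caffeine. In YPS606 the share was 30.6%, 29.8% and 29.4% without and 38.2%, 38.1% and 33.0% in caffeine. In Y55 it was 30.0%, 26.8% and 27.4% without and 33.6%, 32.3% and 34.1% in caffeine, and in UWOP it was 28.3%, 30.2% and 27.0% without and 34.8%, 30.7% and 32.8% in caffeine. The caffeine libraries lay above the others without overlap in each of the 4 strains (exact permutation p = 0.1 each, the smallest possible). In BY4742 the log2 fold change in caffeine was -1.35 for RPS27B and -0.93 for RPS27A. Without caffeine the share in BY4742 was above that of each other strain, again with no overlap (exact permutation p = 0.1 for each). In caffeine it was above Y55 and UWOP without overlap (exact permutation p = 0.1 for each) and overlapped with YPS606, at means of 39.0% and 36.4% (exact permutation p = 0.4). Reads of all strains were assigned with R64 transcripts. Between strains, a difference in the sequence of a copy and a difference in expression cannot be told apart here. As TPM, which uses a length that includes the introns, the share was higher in every group, from 35.0% to 46.7%, and the order of conditions was the same. The 12 tests of this share and the 12 of the share of counts were not adjusted, since none can reach 0.05.

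**Figure D5:**
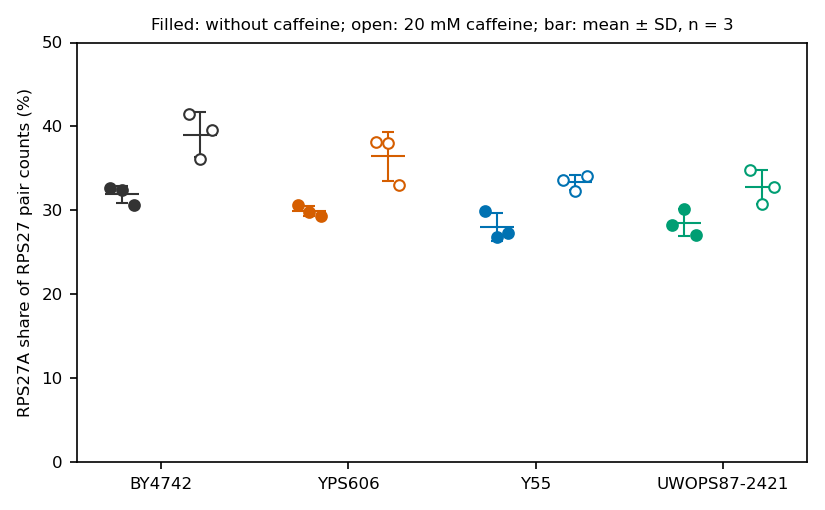
RPS27A as a percentage of the counts of the RPS27 pair (y axis) in each library, by strain, without caffeine (filled) and in 20 mM caffeine (open), with mean ± SD over 3 libraries. In each strain the caffeine libraries lie above those without caffeine, as in BY4742, 30.7% to 32.6% against 36.1% to 41.4%.

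For the other pairs the division between copies is the quantifier's estimate and is given as that. The largest range over groups was in RPS6: RPS6A was assigned 57.7%, 57.2% and 56.5% of the pair in BY4742 without caffeine, and 25.3% to 28.0% in the libraries of the other strains without caffeine. The pair's sum did not pass the test in any strain without caffeine (0.23, -0.04 and 0.11). A strain difference in sequence at the positions that separate the copies and a difference in expression cannot be told apart here. RPS9A was assigned 5.69% to 6.70% of its pair in BY4742 without caffeine and 10.5% to 14.4% in the others. RPS22A, whose counts were whole in all but 2 libraries, made up 81.4% to 83.4% of its pair in BY4742 without caffeine. In BY4742 in caffeine the RPS22A share was 79.5% to 83.8%, which overlaps. Its share was 85.0% to 86.1% in YPS606 without caffeine and 75.9% to 79.7% in YPS606 in caffeine. In Y55 it was 79.6% to 82.1% without and 73.7% to 77.1% in caffeine. In UWOP it was 80.3% to 82.7% without and 76.8% to 78.1% in caffeine. The lower share in caffeine is therefore not particular to YPS606.

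The share of each feature within the small subunit total was also compared. RPS3 was the 1 feature, found after its values were seen and given with no test, whose share of the small subunit counts separated a strain from all others in both conditions: it was 2.81% to 3.32% in the BY4742 libraries and 3.39% to 3.83% in the other 18. RPS15 held 1.72% and 1.85% in YPS606 libraries 26 and 34, against 2.14% to 2.79% in the libraries of the other strains, while library 42 held 2.29%.

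Genes whose products act on these genes or on the subunit were counted by lists of their roles. Of 8 genes for transcription of ribosomal protein genes, 2 rose and 2 fell in caffeine in BY4742 (median -0.19), near the 27.4% and 24.8% over all features. In YPS606, Y55 and UWOP 1, 2 and 2 rose and 2, 1 and 3 fell. The shares over all features were 20.4%, 8.61% and 14.5% higher and 19.9%, 5.8% and 12.9% lower. The calls of this list thus went both ways, and the 2 genes named next were picked from it on their values. HMO1, a high-mobility-group protein that binds ribosomal protein gene promoters, fell in all 4 strains (-0.54, -0.43, -0.64 and -0.75 in BY4742, YPS606, Y55 and UWOP). CRF1, a corepressor known to compete with Ifh1, rose in all 4 (1.42, 1.41, 0.47 and 0.96 in the same order). Of 9 genes of TORC1 and its kinases, 5 rose and 1 fell in BY4742 (median 0.25), against the same 27.4% and 24.8%. In YPS606, Y55 and UWOP 2, 0 and 1 rose and 0 fell, against 20.4%, 8.61% and 14.5% higher and 19.9%, 5.8% and 12.9% lower over all features. LST8, a TORC1 subunit, rose (1.02), and YPK3, the kinase of Rps6, fell (-0.42). Of 13 genes for 40S assembly and dedicated chaperones, 3 rose and 1 fell in BY4742 (median -0.07), a share of rises near that over all features (27.4%), the largest being YAR1, the chaperone of Rps3 (0.97), and DIM1, an rRNA methylase (-0.62). ASC1, the RACK1 protein of the 40S subunit, and STM1, which clamps idle ribosomes, fell with the members in BY4742 (-1.59 and -1.33). Of the 81 large subunit genes, 79 fell in BY4742 (median -1.33), 69 in YPS606, 0 in Y55 and 57 in UWOP, and none rose in these strains. The shares lower over all features were 24.8%, 19.9%, 5.8% and 12.9% in the same order.

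The mitochondrial small subunit has its own set of proteins. All 20 of its genes were higher in each of the 3 strains than in BY4742 without caffeine (medians 1.65, 1.58 and 1.61 for YPS606, Y55 and UWOP), where no cytosolic small subunit feature passed the test. Over all features 21.1%, 20.1% and 20.9% were higher in the same comparisons. In caffeine, 13 of the 20 fell and 1 rose in BY4742 (median -0.33), against 24.8% and 27.4% over all features. In YPS606 1 fell and 5 rose (median 0.15), in Y55 0 and 3 (median 0.23) and in UWOP 0 and 4 (median 0.21), against 20.4%, 8.61% and 14.5% higher over all features. With library totals in place of TMM scaling the median of all features for caffeine in BY4742 was 0.43 in place of 0.03, a shift larger than the medians of the transcription, TORC1, assembly and mitochondrial lists in that comparison, while the 33 small subunit features stayed below it (median -0.93).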

How the data were processed

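Estimated counts and TPM of 6713 transcripts in 24 libraries were analysed. Per the labels and methods, the authors trimmed 75-base single-end reads of poly(A) RNA with Trimmomatic 0.36 and quantified them with kallisto 0.44.0 (R64, sequence-bias correction, fragment length 130 bp, SD 70 bp) against SGD transcripts, which made the deposited estimated counts and TPM. A strand option is not given in the sources used here. Deposited tables of the authors' own DESeq2 comparisons (fold changes and p-values) were not used.

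Copies of a pair were summed where either had a count further than 0.01 from a whole number, and counts were rounded to whole numbers. Library sizes were scaled with TMM factors, low counts were removed with filterByExpr (6377 features kept), and edgeR 4.0.16 (R 4.3.3) fitted its quasi-likelihood model to all 24 libraries with 1 coefficient per group. P-values were adjusted over all 6377 features by Benjamini-Hochberg, with a threshold of 0.05. The SE is the fold change divided by the square root of F. CPM values use TMM-scaled library sizes. Shares were compared by exact two-sided permutation tests. On simulated counts for caffeine in BY4742, 96% of 2-fold and 24% of 1.5-fold changes among 200 changed genes of 6322 tested were called. Symbols and coordinates are from RefSeq on R64 (6026 matched).

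In each comparison, the text names the 3 features with the highest log2 fold change and the 3 with the lowest, among those called, and the families with the 3 highest and 3 lowest TPM. Results of some members are not reported here by name, and these members stay in the counts and medians. Others are named as chosen on their values. The members, lists and rules were chosen with earlier results of these data known. Alternatives were DESeq2 1.42.0, RLE size factors, library totals, TMM without ribosomal protein genes, no filter, copies not summed, only the groups compared, a threshold of 0.01, and leaving out libraries. Leaving out libraries 35, 37 and 42 (with or without 39), or 27, 28, 31 and 32, and a block of consecutive library numbers were added after seeing the data.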

Additional observations from a re-analysis of the deposited data

Results flagged for a closer look

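By the interaction test, some small subunit features differed from BY4742 in their caffeine response. In YPS606 these were 2 of 33, RPS15 (0.99) and RPS7 (0.62), a share below the 6.88% higher over all features and 0 without library 29, 30 or 45, so the count is not a result about these genes. In Y55, 27 features differed against 14.9% over all features, with RPS15 (1.24) and RPS13 (1.22) among the highest and RPS23 (0.90), RPS14 (0.89) and RPS25 (0.83) at the bottom of those called. In UWOP, 12 features differed against 11% over all features, with RPS15 (0.90) and RPS13 (0.83) among the highest and RPS9 (0.77), RPS16 (0.77) and RPS18 (0.77) at the bottom. All are log2 differences in which a positive value is a smaller fall than in BY4742, and the 3 tests share the same 6 BY4742 libraries. RPS15 was the lowest feature of YPS606 against BY4742 without caffeine (-0.41), which enters its interaction value, and whether a lower starting level or a smaller fall sets that value cannot be told apart.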

How the results depend on the processing

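In the 9 comparisons with called features, the median of the features kept its sign under every alternative. For the single features and values named in the report, 1322 results under an alternative kept their side of the threshold, 208 kept their direction and no longer passed, and 0 reversed. Counts and medians below are of the 33 features unless stated. Calls over all features are given only for library totals, so a changed count is not read as particular to these genes. The 3 doubted libraries (35, 37 and 42) were left out together after seeing the data. This gave 21 higher in YPS606 against BY4742 without caffeine, 27 lower for caffeine in Y55, and 27 and 33 higher in the interactions of YPS606 and UWOP (median 1.0 for the latter). Medians were 0.92, 1.22 and 1.04 for YPS606, Y55 and UWOP against BY4742 in caffeine and -1.60 for caffeine in BY4742. With library 39 left out as well, YPS606 and UWOP without caffeine had 25 and 2 higher, caffeine in Y55 31 lower, and the interactions of YPS606 and UWOP 32 and 33. Leaving out the 4 libraries with URA3 near 0 gave 17 for YPS606 against BY4742 in caffeine, 0 for caffeine in UWOP and 1 and 2 for the interactions of YPS606 and UWOP.

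DESeq2 gave 1 lower in YPS606 against BY4742 without caffeine and 20 for the interaction of UWOP. Library totals without TMM moved the median of all features from 0.03 to 0.43 for caffeine in BY4742, where the median of the 33 was -0.93. With totals there was 1 lower in YPS606 without caffeine, 17 higher in YPS606 in caffeine, 9 lower for caffeine in UWOP, and 1 and 6 in the interactions of YPS606 and UWOP. TMM without ribosomal protein genes left 1 in the interaction of YPS606. With totals, the split over all features was 3315 higher and 595 lower for caffeine in BY4742, 2328 and 417 in YPS606, 952 and 168 in Y55 and 1889 and 297 in UWOP.

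With the spread from only the groups compared, YPS606 against BY4742 had 1 lower without caffeine and 9 higher in caffeine, UWOP had 1 higher without caffeine (RPS30, named after its value was seen), and the interaction of YPS606 had 0. At an adjusted p under 0.01, YPS606 in caffeine had 13, caffeine in UWOP had 7, and the interactions had 0, 17 and 1 (YPS606, Y55, UWOP).

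With the 56 genes not summed, 2 higher and 2 lower were called in YPS606, 2 and 1 in Y55 and 2 and 1 in UWOP against BY4742 without caffeine, namely RPS6A, RPS6B and RPS9A in each strain and RPS7B in YPS606. In caffeine 52 (Y55) and 49 (UWOP) were higher. For caffeine 56, 51, 1 and 41 were lower in BY4742, YPS606, Y55 and UWOP, and the interactions of YPS606 and Y55 had 4 and 47.

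Leaving out 1 library at a time, counts ranged from 0 to 5 higher and 0 to 1 lower for YPS606 against BY4742 without caffeine, from 10 to 33 higher for YPS606 in caffeine (median 0.46 to 0.92), from 0 to 1 lower for caffeine in Y55, and from 11 to 32 lower for caffeine in UWOP. The interaction counts ranged from 0 to 25 for YPS606 (median 0.30 to 0.81), from 21 to 33 for Y55 (0.88 to 1.30) and from 1 to 31 for UWOP (0.58 to 1.0). Medians ranged from 0.76 to 1.22 and from 0.60 to 1.04 for Y55 and UWOP in caffeine and from -1.60 to -1.20 for caffeine in BY4742. The end of each range of medians farthest from 0 came without BY4742 caffeine library 37.

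Relative to the median family, levels per kilobase of coding sequence were 0.92 (RPS27), 0.76 (RPS13), 1.44 (RPS26), 1.66 (RPS31) and 1.07 (RPS28). As TPM, RPS27A made up 39.2%, 37.0%, 35.0% and 35.4% of its pair in BY4742, YPS606, Y55 and UWOP without caffeine and 46.7%, 44.1%, 40.7% and 40.1% in caffeine. The labels give no pairing, since no 2 groups share a library number. The numbers 25 to 32, 33 to 40 and 41 to 48 each hold every group once, and the libraries with URA3 near 0 all lie in the first of these sets. These sets were tried as a block after seeing the data. Deviations from the group means correlated above 0.1 in 28 of 84 pairs of libraries within a set (median 0.03). Values for pairs from different sets are not given, so these correlations cannot show whether the sets differ. With this block the interaction of YPS606 had 1 call and that of UWOP 15, and every other count was within 1.5 times of the count without it. The cause of these shifts was not tested.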
